A study of Homo sapiens with 9 samples.

Results

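The coagulation factor and fibrinogen genes F2, F5, F7, F10, F11, FGA, FGB, FGG, PROC and SERPINC1 are 10 of the 19821 protein-coding genes of the GENCODE annotation on GRCh37 (hg19). They were chosen by name, and every ATAC-seq peak that overlapped one of the gene bodies or the 20 kb on either side was collected. This gave 53 of the 111260 regions formed by merging the overlapping peaks of all 3 lists. Of the 53 regions, 9 lay at the start site of a member, 6 at the start site of another gene and 38 were distal.

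The cells were HepG2, a line derived from a human liver cancer, studied after transfection of 50 nM siRNA for 72 hours. NTG is the non-targeting control, and siINO80#1 and siINO80#2 are 2 different siRNAs against INO80, the ATPase subunit of the INO80 chromatin remodeling complex (INO80-C); all groups received the same line, dose and time and differed in the siRNA. Each of the 3 groups had 3 replicates but is represented by 1 peak list, so no member has a replicate value, no SD can be given and no difference between lists was tested. The level of INO80 itself was not measured in these files, so the depletion was not checked here.

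Coagulation is a cascade in which inactive plasma proteases are cut and activated in turn until thrombin converts soluble fibrinogen into fibrin. Hepatocytes make most of these proteins, together with the inhibitors that stop the cascade, and their promoters are classic targets of the liver factors HNF1, HNF4A and C/EBP. ATAC-seq reports where a transposase can reach the DNA, and an accessible promoter does not by itself measure transcription. In a bulk sample, a site that is open in fewer cells and a site that is less open in every cell cannot be told apart.

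Peak strength is given on 3 scales. Fold enrichment is the ratio of reads at the summit to the local background, as the peak caller gave it. The within-list percentile is the percentage of peaks in the same list with a fold enrichment at or below that of the peak. Another scale is the number of reads at the summit, recovered from fold enrichment and −log10 p, divided by the genome background, the lowest background of the list in reads. The lists held 69730 (NTG), 69333 (siINO80#1) and 53113 (siINO80#2) peaks. Their relative read numbers were 1, 1.43 and 1.44, and the median summit held 20, 24 and 25 reads. The relative read number is the genome background divided by the shortest peak of the list (148, 140 and 144 bp), set against NTG. As a check of cell identity, the liver markers APOA1, TTR, TF and HNF4A had a start-site peak in every list, ALB had one in NTG and siINO80#1, and AFP had none. None of 5 markers of leukocytes, endothelium, fibroblasts and muscle (PTPRC, CD3E, CDH5, COL1A1 and MYOD1) had one in any list.

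The sequences shown are the 200 bases before the start sites of FGA, FGB and SERPINC1, read 5′ to 3′ on the strand of the gene. Capitals mark the letters of a motif on either strand, GTTAATNAT for HNF1 and TTGCNNAA for C/EBP. FGA and FGB belong to 1 cluster but only FGA had a peak at its start site, and SERPINC1 had the lowest ratio of summit reads to NTG among the members in both siINO80 lists.
FGA, chr4:155511895-155512094, minus strand: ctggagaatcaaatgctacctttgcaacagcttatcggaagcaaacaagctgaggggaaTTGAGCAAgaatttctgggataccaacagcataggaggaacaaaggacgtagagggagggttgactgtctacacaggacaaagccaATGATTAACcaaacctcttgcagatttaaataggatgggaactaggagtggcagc
FGB, chr4:155483963-155484162, plus strand: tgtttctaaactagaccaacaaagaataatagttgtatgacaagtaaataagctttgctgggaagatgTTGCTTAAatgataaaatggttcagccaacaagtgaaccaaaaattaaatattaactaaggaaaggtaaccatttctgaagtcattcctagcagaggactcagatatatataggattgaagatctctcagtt
SERPINC1, chr1:173886466-173886665, minus strand: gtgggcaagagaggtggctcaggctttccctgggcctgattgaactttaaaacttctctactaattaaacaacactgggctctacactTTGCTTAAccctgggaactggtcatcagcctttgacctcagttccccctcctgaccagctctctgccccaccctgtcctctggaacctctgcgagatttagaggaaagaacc

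In the FGA promoter the HNF1 letters run from −55 to −47 and the C/EBP letters from −141 to −134, counted from the start site. FGB carries C/EBP letters from −132 to −125, and SERPINC1 from −112 to −105. Of 19881 promoter windows of the same length, 0.412% held the HNF1 letters and 5.40% the C/EBP letters. A match of letters is a description of the sequence and not evidence of binding. Only exact letters were searched, so a variant of a motif would be missed. No relation between the letters and the presence or strength of a peak was tested.

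Of the 10 members, 9 had a start-site peak, with the summit within 1 kb of a protein-coding transcript start, in each of the lists (9 of 10 in NTG, in siINO80#1 and in siINO80#2). Over all protein-coding genes the shares were 58.8%, 58.6% and 52%. The exception was FGB, which had none in any list. At the deposited threshold the same 9 members thus had a start-site peak in each list, and the lists differed in how strong these peaks were. With a −log10 q of at least 5, F7 had a peak in NTG (9.43) but not in siINO80#1 (4.10) or siINO80#2 (1.47), which left 9, 8 and 8 members. The median within-list percentile of the 9 peaks was 92.4 in NTG, 86.1 in siINO80#1 and 76.8 in siINO80#2. Over the 9807 genes with a start-site peak in all 3 lists these medians were 84.4, 83.8 and 77.9.

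Differences between lists were read against the 9807 genes with a start-site peak in all 3 lists. F2, F7, F10, PROC and SERPINC1 (5 of the 9) had a lower percentile in both siINO80 lists than in NTG, beside 45.3% of all these genes. A percentile at least 20 points lower in both lists, a limit chosen after the values were seen, was met by 2 of 9 members (F7 and SERPINC1) and by 4.22% of all genes. None of the 9 (0 of 9) was at least 20 points higher in both, against 1.55% of all genes. On the read scale, at the highest summit of each peak, 3 of 9 members (F2, F10 and SERPINC1) were below 2/3 of their NTG value in both lists, against 7.95% of all genes. With 9 members, each of these counts rests on few genes.

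**Figure D1:**
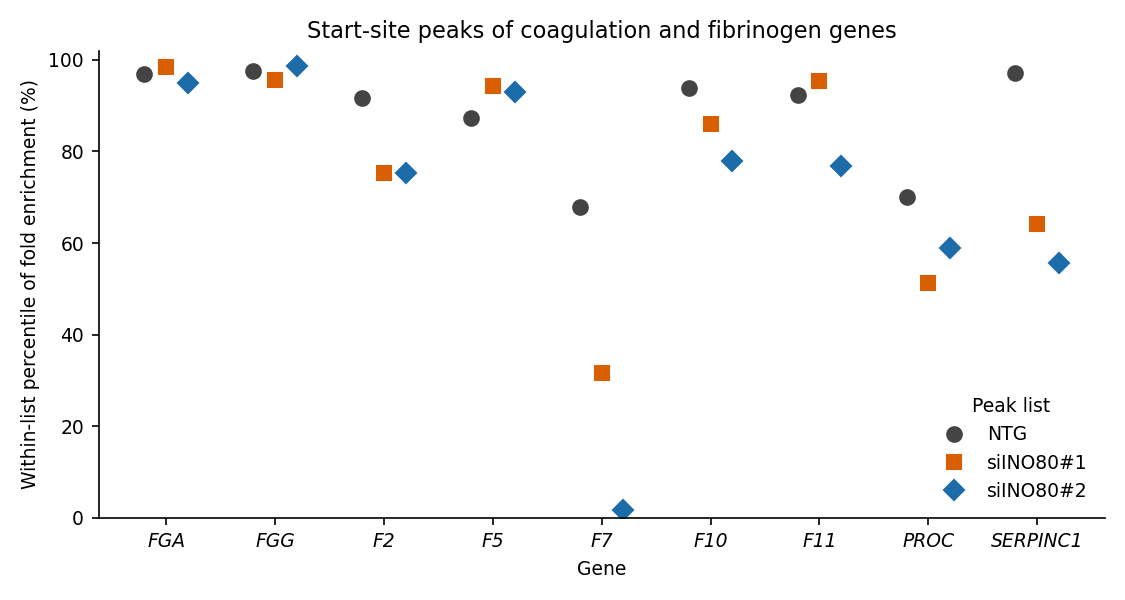
Within-list percentile of fold enrichment (y axis, %) of the start-site peak of each gene (x axis), with 1 point for each peak list and no error bars because each group has 1 list. FGA and FGG lie at 95.02 or above in every list, whereas SERPINC1 lies at 97.2 in NTG and at 64.1 and 55.6 in the siINO80 lists, and F7 lies at 1.65 in siINO80#2. FGB had no start-site peak and is not plotted.

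Fibrinogen is built from 3 chains, encoded by FGA (Aα), FGB (Bβ) and FGG (γ) in a cluster that spans chr4:155484163-155534119, which is 49.957 kb. FGA and FGG had among the strongest start-site peaks of the 10 genes in all lists. At FGA the fold enrichment was 9.55 in NTG, 10.9 in siINO80#1 and 7.74 in siINO80#2, which are percentiles of 96.9, 98.6 and 95.02. At FGG it was 9.99, 8.63 and 10.2, or percentiles of 97.5, 95.6 and 98.6. The order of the lists thus differed between these neighbouring genes, and all these percentiles were at 95.02 or above.

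The read scale placed the FGG peak lower in both siINO80 lists. The FGG summit held 78 reads in NTG, 64 in siINO80#1 and 75 in siINO80#2, or 20.4, 12.4 and 14.1 times the genome background, which is 0.608 (95% interval 0.430 to 0.857) and 0.688 (0.494 to 0.957) of NTG. The FGA summit held 64, 90 and 61 reads, or 1.04 (0.748 to 1.46) and 0.682 (0.472 to 0.984) of NTG. Over all 9807 genes the median ratio to NTG was 0.908 for siINO80#1 and 0.716 for siINO80#2, so only the FGG value for siINO80#1 was far from the median of all genes, with 4.94% of genes at or below it. These exact intervals cover counting error only, and PCR copies of a read are not independent molecules.

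FGB had no peak within 1 kb of its start, but 3 distal regions were given to it and all 3 were in every list. The region at −3.37 kb (chr4:155480505-155482379) was the strongest of the 3 in NTG and siINO80#2. It had a fold enrichment of 7.87 in NTG, 7.30 in siINO80#1 and 7.09 in siINO80#2, which are percentiles of 93.1, 92.1 and 93.1. A weaker region at −10.7 kb (chr4:155473269-155473688) had percentiles of 77.4, 85.7 and 66.8. FGB was therefore flanked by upstream peaks in every list, with no peak called at the start site itself.

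The last FGB region lay between FGB and FGA, 14.5 kb downstream of the FGB start (chr4:155498128-155498932). It had 43 summit reads in NTG, 44 in siINO80#1 and 19 in siINO80#2, or 11.3, 8.53 and 3.56 times the genome background. Its percentiles were 92.6, 92.2 and 50.1, so the lists of the 2 siRNAs against INO80 differed there. The 200 bases around its strongest summit are shown because they hold C/EBP letters at 2 places.
FGB downstream, chr4:155498562-155498761, plus strand: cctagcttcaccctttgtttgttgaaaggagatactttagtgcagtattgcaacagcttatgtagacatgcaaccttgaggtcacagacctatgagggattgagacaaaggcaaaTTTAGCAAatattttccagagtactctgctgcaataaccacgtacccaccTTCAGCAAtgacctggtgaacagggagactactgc

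**Figure D2:**
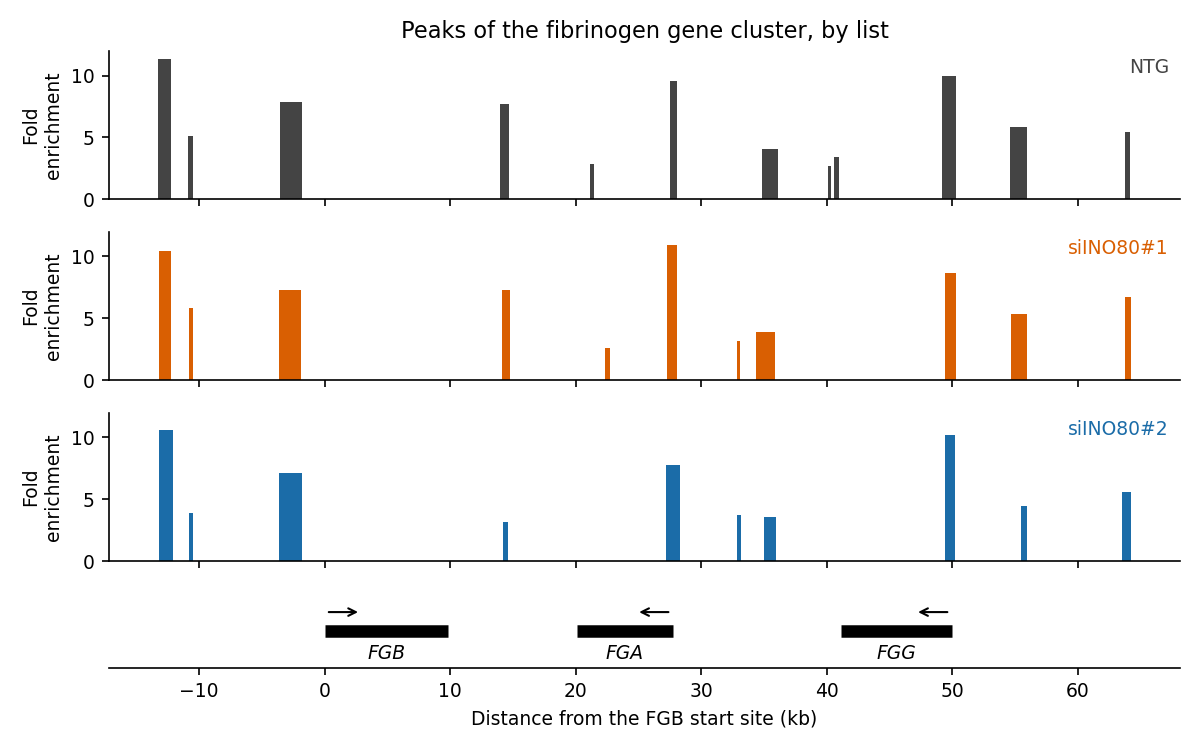
Peaks of the fibrinogen cluster in each list, drawn at their interval (x axis, distance from the FGB start site in kb) with the fold enrichment of the strongest summit as height (y axis, ratio); black bars are gene bodies and arrows the direction of transcription. No peak lies at the FGB start in any list, and the region at 14.5 kb has a fold enrichment of 7.70 in NTG, 7.31 in siINO80#1 and 3.16 in siINO80#2.

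The cluster as a whole held 14 regions, 10 of them distal. Of these 10, 5 were in all lists, 3 were found only with NTG, 1 only with siINO80#1, and 1 with both siINO80 siRNAs and not with NTG. FGG had a region at −6.17 kb (chr4:155538778-155540130) with percentiles of 83.6, 82.4 and 75.1, and a region beyond its last exon (chr4:155518514-155520282) with 65.0, 65.1 and 60.3. With NTG alone, the strongest regions were downstream of FGG (chr4:155524776-155525126, percentile 51.3) and past the end of the canonical FGA transcript (chr4:155505313-155505603, 26.5). The region of both siINO80 lists lay at −5.25 kb from FGA (chr4:155517002-155517323), with 22 reads and a percentile of 50.5 in siINO80#1 and 26 reads and 64.2 in siINO80#2. Its summit carries C/EBP letters.

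Of the procoagulant factors, F2, F7 and F10 had percentiles below NTG in both siINO80 lists, and F5 had percentiles above NTG in both. F11 was above NTG in siINO80#1 and below it in siINO80#2. F2 encodes prothrombin, the precursor of thrombin. Its peak spanned the start site with its highest summit near −762 in NTG, −770 in siINO80#1 and −818 in siINO80#2. The summit held 72, 57 and 59 reads, the fold enrichment was 7.45, 4.61 and 4.46, and the percentile was 91.7, 75.2 and 75.3. At this summit the siINO80 values were close to each other, at 0.586 (0.407 to 0.842) and 0.586 (0.409 to 0.839) of NTG, and 3.76% and 21.7% of all genes were at or below them. The same peak had weaker summits nearer the start, at −43 in NTG, −50 in siINO80#1 and 9 in siINO80#2. They held 49, 43 and 56 reads, or 12.8, 8.34 and 10.5 times the genome background, so siINO80#2 was closer to NTG there than siINO80#1.

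F10 encodes factor X, which in its active form cuts prothrombin. Its summit held 98 reads in NTG, 79 in siINO80#1 and 62 in siINO80#2, the percentile was 93.9, 86.1 and 78.0, and the ratio to NTG was 0.597 (0.438 to 0.811) and 0.453 (0.324 to 0.629). The peak of F10 was thus the one with most reads of the 9 in NTG and was lower in both siINO80 lists. The window of F10 held the HNF4A letters CAAAGTCCA, which were in 0.595% of 21518 start-site regions and in 1 of the 9 of the members.

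F7 encodes factor VII, which starts the cascade when it binds tissue factor. It had the weakest start-site peak of the 9 in each list, with 31 reads in NTG, 28 in siINO80#1 and 23 in siINO80#2 and a fold enrichment of 4.28, 2.74 and 2.09. Its percentile was 67.8, 31.6 and 1.65, and its peak in siINO80#2 was close to the calling limit, with a −log10 q of 1.47. Only 7 of 9807 genes, F7 included, were as far below NTG in percentile in both lists. On the read scale the contrast was smaller, at 0.669 (0.387 to 1.15) and 0.531 (0.296 to 0.941) of NTG. By these ratios, 435 genes, F7 included, were as low in both lists. The local background around F7 was 6.47, 9.57 and 10.5 reads in the 3 lists.

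F5 encodes factor V, the cofactor of active factor X. Its start-site peak had 58 reads in NTG, 80 in siINO80#1 and 67 in siINO80#2, a fold enrichment of 6.48, 8.12 and 7.04, and a percentile of 87.4, 94.4 and 93.0. F5 was the only one of the 9 members with a higher percentile in both siINO80 lists, by 6.96 and 5.57 points. The ratio of reads to NTG was 1.02 (0.720 to 1.46) and 0.827 (0.573 to 1.20), so on this scale the intervals of both include 1. They also include the median ratios of all genes, 0.908 and 0.716. The F5 ratios were above these medians, with 69.7% and 72.9% of genes at or below them.

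F11 encodes factor XI, which feeds the cascade through factor IX. Its highest summit lay in intron 1, at 729 bases after the start in NTG, 704 in siINO80#1 and 705 in siINO80#2. It held 42, 52 and 28 reads, with a fold enrichment of 7.66, 8.52 and 4.58 and a percentile of 92.4, 95.3 and 76.8. By fold enrichment and percentile, the lists of the 2 siRNAs against INO80 lay on opposite sides of NTG. On the read scale both were below NTG, with a ratio of 0.917 (0.599 to 1.41) in siINO80#1 and 0.477 (0.285 to 0.788) in siINO80#2. The interval for siINO80#1 includes 1. The weaker summits nearest the start lay at −225 in NTG, −80 in siINO80#1 and 213 in siINO80#2. They held 25, 18 and 22 reads, or 6.55, 3.49 and 4.12 times the genome background, so both siINO80 lists were below NTG at these differing positions. A distal region of F11 at −5.44 kb (chr4:187181292-187182510) had percentiles of 83.7, 78.3 and 26.7, so that both siINO80 lists were below NTG there.

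Of the 2 anticoagulant genes, SERPINC1 differed more from NTG than PROC on every scale. SERPINC1 encodes antithrombin, which inactivates thrombin and active factor X. Its summit held 79 reads in NTG, 31 in siINO80#1 and 27 in siINO80#2, or 20.7, 6.01 and 5.06 times the genome background. Its fold enrichment was 9.80, 3.78 and 3.36 and its percentile 97.2, 64.1 and 55.6. The ratios to NTG were 0.291 (0.185 to 0.445) and 0.245 (0.152 to 0.383), and neither interval came near the median ratios of all genes given above.

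Among the 9807 genes only 2 had ratios as low in both lists as SERPINC1, itself and PDE1A, a phosphodiesterase gene named after its values were seen. By percentile, 78 genes, SERPINC1 included, were as far below NTG in both lists. The local background around SERPINC1 was 7.17, 7.46 and 7.33 reads, in lists whose genome backgrounds were 3.82, 5.16 and 5.34 reads. Relative to the genome background, the local background was thus also lower in both siINO80 lists than in NTG. The reads at the summit were lower in both even without that scaling. In NTG the strongest summit was at −40, with 79 reads. The summits nearest to it held 28 reads at −80 in siINO80#1 and 27 reads at −6 in siINO80#2, so the reads were also lower at the summits nearest to that of NTG.

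PROC encodes protein C, which once activated cuts the active forms of factors V and VIII. Its summit held 72 reads in NTG, 65 in siINO80#1 and 69 in siINO80#2, but the fold enrichment was only 4.43, 3.21 and 3.48 because the local background was 15.5, 19.5 and 19.1 reads. F2 had the same 72 reads in NTG over a local background of 8.80. The percentiles of PROC were 70.0, 51.2 and 58.9, and its ratios to NTG were 0.669 (0.471 to 0.948) and 0.686 (0.486 to 0.968). The order of genes by fold enrichment is in part an order of local backgrounds.

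**Figure D3:**
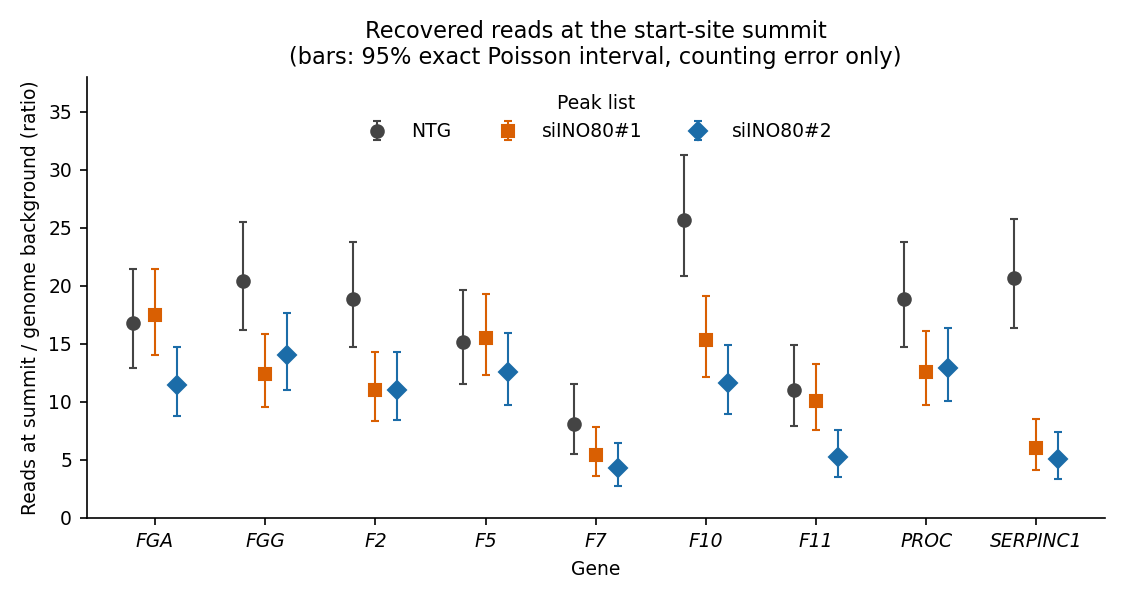
Reads at the start-site summit divided by the genome background of the list (y axis, ratio) for each gene (x axis), by list; bars are 95% exact Poisson intervals and cover counting error only. The intervals of SERPINC1 in the siINO80 lists (4.09 to 8.53 and 3.33 to 7.36) lie below its NTG interval (16.4 to 25.8), and those of F5 overlap in all lists.

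Across the 9 members the median ratio to NTG was 0.669 in siINO80#1 and 0.586 in siINO80#2, beside 0.908 and 0.716 for all genes. The central 90% of all genes ran from 0.610 to 1.33 and from 0.469 to 1.07. SERPINC1, F2, F10 and FGG were below the lower end of that range in siINO80#1, and SERPINC1 and F10 in siINO80#2.

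The distal regions were counted once each and given to the member whose gene body or start site was nearest. Of 38, 14 were in all lists (36.8%, 95% Wilson interval 23.4 to 52.7%), against 20.3% of 89742 distal regions over the genome. Of the 38, 9 (23.7%, 12.99 to 39.2%) were in NTG alone, against 26.8%, and 4 of 38 (10.5%, 4.17 to 24.1%) were shared by the siINO80 lists and absent from NTG, against 5.71%. Of the others, siINO80#1 alone held 6 and siINO80#2 alone 3, while 1 was shared by NTG and siINO80#1, and 1 by NTG and siINO80#2. Regions of 1 locus are not independent, and the intervals treat them as if they were. The distal peaks numbered 25 in NTG, 25 in siINO80#1 and 24 in siINO80#2, beside 69730, 69333 and 53113 peaks of all kinds in the lists. In siINO80#2 the F11 region at −5.44 kb and the FGG region at −6.17 kb held 2 peaks each, so fewer regions than peaks are counted there.

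Distal regions were dense at several of these genes. Counted in each gene's own window, FGA had 14.7 per 100 kb, FGG 14.3, F5 13.1, FGB 10.0 and PROC 7.87, whereas F11 had 4.72, SERPINC1 3.74, F2 3.32, F10 2.997 and F7 1.82. The median was 6.30 for the members and 1.85 for all protein-coding genes. The windows of FGA, FGB and FGG overlap, so the same regions enter their densities more than once.

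F5 held 15 of the 38 distal regions, 9 of them within the gene, and the 23 others were spread over 8 members. At F5, 3 were in all lists, 4 were found only with NTG, 4 only with siINO80#1, 1 only with siINO80#2, and 3 with both siINO80 siRNAs and not with NTG. The strongest was in intron 2 (chr1:169541066-169542133), with 37 reads in NTG, 60 in siINO80#1 and 61 in siINO80#2, or 9.69, 11.6 and 11.4 times the genome background. It had a fold enrichment of 5.58, 7.31 and 7.59 and percentiles of 81.4, 92.1 and 94.7. Its percentile was higher in both siINO80 lists than in NTG, as was that of the F5 start-site peak, whose summit reads over the genome background were 15.2, 15.5 and 12.6. Its window carries the letters of AP-1 (TGACTCA on either strand), marked in capitals.
F5 intron 2, chr1:169541594-169541793, plus strand: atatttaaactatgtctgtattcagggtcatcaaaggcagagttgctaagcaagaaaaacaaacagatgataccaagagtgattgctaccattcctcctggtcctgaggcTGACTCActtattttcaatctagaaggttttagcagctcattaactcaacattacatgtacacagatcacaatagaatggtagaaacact

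A second region of F5, in intron 1 (chr1:169553869-169554438), had percentiles of 77.1, 82.6 and 84.7, and another, in intron 3 (chr1:169539147-169539779), had 45.3, 68.9 and 53.0. The regions of both siINO80 lists were 76.9 kb (chr1:169478601-169479047; percentiles 72.9 and 68.1) and 76.6 kb (chr1:169479098-169479819; 35.4 and 29.9) from the F5 start, beyond its last exon, and in intron 9 (chr1:169519571-169520081; 79.6 and 44.8). In NTG alone, F5 had a region beyond its last exon (chr1:169477548-169477840, percentile 72.2) and 2 upstream regions within SELP (chr1:169557939-169558267, 64.9; chr1:169570182-169570465, 54.7). Beyond the 3′ end of F5, a peak of NTG alone thus lay beside peaks of both siINO80 lists.

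All 4 distal regions of PROC were in every list. The strongest was 20.02 kb from the start, within the neighbouring gene IWS1 (chr2:128195642-128196404). This region had 107 reads in NTG, 100 in siINO80#1 and 91 in siINO80#2, or 28.0, 19.4 and 17.1 times the genome background, and percentiles of 95.5, 93.8 and 92.3. It was stronger in percentile than the PROC start-site peak in each list. The region at −20.01 kb (chr2:128155729-128156070) had 41.0, 45.8 and 68.4, the region at −16.9 kb had 41.5, 62.3 and 51.7, and the region at −3.36 kb had 5.92, 0.153 and 1.52, close to the weakest peaks of each list.

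SERPINC1 showed the opposite, with both of its distal regions in NTG alone. The stronger lay at −8.13 kb (chr1:173894328-173895277), with 28 reads, a fold enrichment of 5.33 and a percentile of 79.3, the highest of the 18 distal regions found in 1 list. The other was in intron 6 (chr1:173874958-173875166), with 15 reads and a percentile of 33.7. The −8.13 kb region is shown because its window carries C/EBP letters, as does the SERPINC1 promoter.
SERPINC1 upstream, chr1:173894499-173894698, plus strand: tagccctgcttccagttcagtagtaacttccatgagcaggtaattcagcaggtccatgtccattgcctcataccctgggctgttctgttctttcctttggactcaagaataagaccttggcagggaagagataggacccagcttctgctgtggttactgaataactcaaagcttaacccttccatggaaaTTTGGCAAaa

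The remaining factors had few distal regions. F10 had a region in intron 3 (chr13:113793348-113793911) in all lists, with percentiles of 70.9, 76.7 and 68.7, and 1 at 30.2 kb in NTG (50.3) and siINO80#2 (2.33). F11 had, beside its upstream region, 1 in intron 10 in NTG (48.9) and siINO80#1 (53.4) and 1 at 41.5 kb in siINO80#2 (37.9). F2 had 1 in intron 12 in siINO80#2 (38.2) and 1 at 27.8 kb in siINO80#1 (5.38), and F7 had none of its own, although the F10 region in intron 3 also lies within 20 kb of F7. No distal region of F2 was therefore shared between lists.

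**Figure D4:**
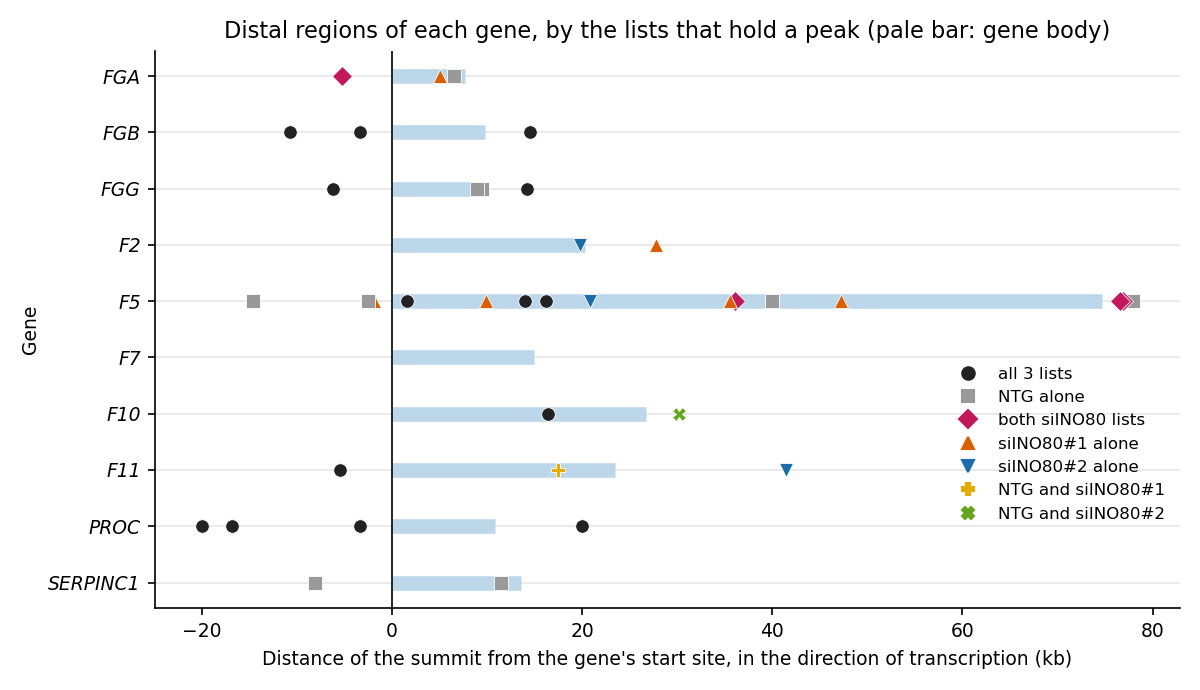
Distal regions of each gene by the distance of the summit from its start site in the direction of transcription (x axis, kb); pale bars are gene bodies, and the marker gives the lists that hold a peak. PROC and FGB show only regions of all 3 lists (4 and 3), SERPINC1 only regions of NTG alone (2), and F5 the widest mix (15 regions).

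The motif letters were searched on both strands in 200 bp around the strongest summit of each region. At start sites, 2 of 9 members (FGA and SERPINC1) held C/EBP letters against 6.47% of 21518 start-site regions, and 1 of 9 (FGA) held HNF1 letters against 0.674%. None held FOXA (TGTTTAC, 2.72%) or AP-1 letters (7.06%). Of the 38 distal regions, 6 held C/EBP (15.8% against 11.3% of all distal regions), 4 AP-1 (10.5% against 13.01%), 2 FOXA (5.26% against 5.49%) and 0 HNF1 or HNF4A letters (1.15% and 0.854%). Of the 4 regions of both siINO80 lists, 1 held C/EBP letters (FGA) and 1 FOXA letters (F5, 76.6 kb), and none held AP-1 letters.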

How the data were processed

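ATAC-seq libraries of HepG2 cells were grouped by the sample titles into NTG, siINO80#1 and siINO80#2, with 3 replicates each. The authors deposited 1 peak list per siRNA. Per the labels' processing notes the tools were Trim Galore 0.4.1, Bowtie2, SAMtools, MACS2 and deepTools 2.2.4 on hg19; their settings for ATAC-seq, including any shift for the transposase, are not given in the sources used here. The fold enrichment of each summit is a ratio the authors' caller computed against the local background of the same list, and p and q were deposited as −log10 values. No peak ended beyond a GRCh37 chromosome and 0 summits fell on unknown bases.

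An interval with several summits counted once, by its summit of highest fold enrichment. Peaks overlapping by 1 bp or more were merged into regions across lists. A start-site peak has that summit within 1 kb of a protein-coding transcript start (GENCODE 44, lifted to GRCh37); distal regions have none of 220821 annotated starts that near. Summit reads and local background were solved from fold enrichment and −log10 p, assuming the formulas of MACS2, and the lowest background was taken as the genome background. Intervals of ratios to NTG are exact binomial intervals of the 2 read counts. The number of sequenced reads per sample is unknown, and summit reads set the precision. The solution, the regions and the motif search were tested on simulated data and recovered 100% of cases. The simulated peaks were made with the same formulas, so this checks the code and not whether the lists follow those formulas. Computations used bedtools 2.31.1, pysam 0.24.0 and scipy 1.17.1 with pandas 2.3.3 and numpy 2.4.6 under Python 3.11.15, and figures matplotlib 3.10.9.

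All 10 members were named. Distal regions were named where they were the strongest 5 of their class by smallest percentile, or the strongest of a member in a list; others given with values were named after their values were seen. The members, the lists and the limits were chosen with earlier results of these data known. The alternatives were a −log10 q of at least 5, equal list sizes, an overlap of 50%, all transcripts, 2.5 kb to the start site, any part of the interval, flanks of 5 and 50 kb, and merging within 500 bp. Other limits and measures of strength were added after seeing the data. Some genes and 1 sequence are not reported here.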

Additional observations from a re-analysis of the deposited data

Results flagged for a closer look

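For 3 members the start-site percentile was above NTG with one siRNA against INO80 and below it with the other, and this difference was not tested because each siRNA has 1 list. F11 was 2.91 points higher in siINO80#1, and its siINO80#2 minus NTG value was −15.6 points. FGA differed by 1.67 and −1.85 points, and FGG by −1.96 and 1.12 points, in the same order. The values of FGA and FGG are small beside the central 90% of all genes, which ran from −22.3 to 20.3 points in siINO80#1 and from −41.2 to 11.7 points in siINO80#2.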

How the results depend on the processing

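Of 59 values recomputed under the alternatives, 54 stayed within 1.5 times the reported value and 5 did not. With a −log10 q of at least 5, which keeps fewer peaks by construction, 20 distal regions remained in all, 4 in NTG alone and 2 in both siINO80 lists but not in NTG. With a flank of 5 kb, which covers less of each locus, 9 distal regions were in all lists. With a limit of 10 percentile points in place of 20, 4 members were lower in both siINO80 lists. Leaving out a replicate was not possible because each siRNA has 1 list. No paired analysis was possible because the lists carry no value per replicate. Depth limits the weakest peaks most: F7 in siINO80#2 rests on 23 summit reads, and a peak missing from a list may lie just under its calling threshold. The calling settings and the different numbers of reads of the lists were not tested as causes of any difference.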

Other observations

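Other proteins of the pathway were read in the same way. Of 18 further liver-made proteins of coagulation and fibrinolysis, 7 had a start-site peak in every list, 6 in none (F9, F12, KLKB1, PLG, HRG and HABP2) and 5 in some lists, with 12 in NTG, 9 in siINO80#1 and 10 in siINO80#2. Over all protein-coding genes the shares were 58.8%, 58.6% and 52%. A percentile at least 20 points lower in both siINO80 lists was found for 2 of the 7 with a peak in every list, beside 4.22% of all such genes. SERPINF2, which encodes the inhibitor of plasmin, had percentiles of 51.9 in NTG, 9.49 in siINO80#1 and 5.62 in siINO80#2, and SERPINA5, which encodes the protein C inhibitor, had 80.5, 49.4 and 50.7. PROS1, the gene of the protein C cofactor protein S, was among the strongest peaks of every list, with percentiles of 99.99 in NTG, 99.84 in siINO80#1 and 99.93 in siINO80#2. GGCX and VKORC1, whose enzymes serve the vitamin K-dependent maturation of clotting factors, differed by less than 5 points from NTG in both lists.

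Of the proteins of coagulation and fibrinolysis known mainly from endothelium, platelets, monocytes or other tissue, F3, F8, TFPI and PLAUR had a start-site peak in every list, and 6 had none in any list (VWF, THBD, PROCR, GP1BA, ITGA2B and SELP). None of F3, F8, TFPI and PLAUR was at least 20 points lower or higher in both siINO80 lists. F3, the gene of tissue factor, had percentiles of 66.9 in NTG, 82.4 in siINO80#1 and 80.9 in siINO80#2.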
